A study of Mus musculus with 2 samples.

Results

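The V1 domain of the vacuolar H+-ATPase (V-ATPase) was examined through 8 genes, chosen by name: Atp6v1a, Atp6v1b2, Atp6v1c1, Atp6v1d, Atp6v1e1, Atp6v1f, Atp6v1g1 and Atp6v1h. They are 8 of the 14870 mouse genes to which RNA was assigned in at least 1 library. The RNA came from bone marrow cells of WT mice and was sequenced from 2 cultures, 1 library each, of which M received M-CSF as the sole cytokine and MR received RANKL besides M-CSF. M-CSF is the cytokine that carries bone marrow precursors into the macrophage lineage, and RANKL is the cytokine that turns these precursors into osteoclasts. By the labels, the cells had 2 days of M-CSF, and RANKL was then present for 2 days in MR. The culture method of the study gives a longer period with RANKL, and the day of the RNA harvest is not named. The number of animals, their age and sex are not given in the sources used here. With 1 library per condition no p-value could be computed, and each difference describes these 2 libraries.

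The V-ATPase is a rotary pump that moves protons across membranes at the cost of ATP. Its V1 domain lies in the cytosol and hydrolyses ATP, and its V0 domain lies in the membrane and passes the protons. In osteoclast precursors, as in most cells, the pump acidifies lysosomes and endosomes. In the resorbing osteoclast it is also placed in the ruffled border, where it acidifies the space between cell and bone and dissolves the mineral. Within V1, the A and B subunits form the catalytic head, E and G form the peripheral stalks that hold the head still, D and F form the central rotor, and C and H form the collar between V1 and V0, where the holoenzyme comes apart and is put together again.

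All 8 genes were higher in MR than in M, by log2 ratios of 1.20 to 2.51 with a median of 1.82. The ratios were taken after adding 1 to the TPM (transcript abundance scaled to a fixed library total), so that a value of 1 stands for a doubling. The 8 TPM values together came to 1950 in M and were 3.46 times as high in MR, at 6752, and took up 0.195% of the TPM of M and 0.675% of that of MR. In MR, 8 of 8 members were thus over a log2 ratio of 1, whereas 21.2% of 13464 comparable genes were (each with its own locus and 1 TPM or more), and 13.3% were under -1. Over a log2 ratio of 2 were 2 of the 8 (Atp6v1d and Atp6v1b2) and 7.12% of all genes, and 3.87% were under -2. With another scaling between the libraries, Atp6v1b2 was below 2, at 1.90. The median log2 ratio of these 13464 genes was 0.21. Among genes that reached 10 TPM, 18.4% were over 1 and 11.3% under -1. Among the 1883 that reached 100 TPM, as all 8 members did in MR, 25.5% were over 1 and 16.5% under -1. The levels of the 8 spanned 97.1 to 391 TPM in M and 379 to 1675 TPM in MR, and these ranges overlapped only in that Atp6v1h in MR was below Atp6v1b2 in M. In bulk RNA, fewer cells of a type and less RNA per cell cannot be told apart, so that the values do not say how many cells carried these transcripts.

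The promoter table used here, from RefSeq on GRCm38.p6, holds 4 of the 8 members. The promoters of these 4 are printed because only they were available, and all 8 members were higher in MR. Each runs from 250 bases before the annotated start site to 50 bases after it. Capitals mark matches to CACGTG, the E-box that factors of the MiT/TFE family bind, and to GGGCGG, the GC box, each searched on both strands.
Atp6v1a, chr16:44139210-44139509, minus strand: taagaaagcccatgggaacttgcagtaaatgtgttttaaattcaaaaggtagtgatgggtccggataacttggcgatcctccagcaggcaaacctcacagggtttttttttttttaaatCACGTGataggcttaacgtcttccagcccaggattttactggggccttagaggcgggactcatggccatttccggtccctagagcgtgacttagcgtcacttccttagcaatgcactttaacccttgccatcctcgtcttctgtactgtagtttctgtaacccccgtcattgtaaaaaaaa
Atp6v1e1, chr6:120822649-120822948, minus strand: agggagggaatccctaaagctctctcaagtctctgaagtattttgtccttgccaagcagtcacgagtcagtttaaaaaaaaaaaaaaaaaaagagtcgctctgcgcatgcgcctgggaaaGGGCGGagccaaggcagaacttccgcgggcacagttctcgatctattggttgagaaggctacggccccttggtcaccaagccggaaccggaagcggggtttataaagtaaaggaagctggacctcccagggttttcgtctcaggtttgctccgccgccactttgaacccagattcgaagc
Atp6v1d, chr12:78861589-78861888, minus strand: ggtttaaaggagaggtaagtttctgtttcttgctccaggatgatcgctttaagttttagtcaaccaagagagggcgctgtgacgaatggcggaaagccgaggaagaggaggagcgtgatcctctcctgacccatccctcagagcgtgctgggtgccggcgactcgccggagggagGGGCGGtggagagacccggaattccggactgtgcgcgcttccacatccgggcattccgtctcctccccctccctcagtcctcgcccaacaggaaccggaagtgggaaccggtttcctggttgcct
Atp6v1f, chr6:29467533-29467832, plus strand: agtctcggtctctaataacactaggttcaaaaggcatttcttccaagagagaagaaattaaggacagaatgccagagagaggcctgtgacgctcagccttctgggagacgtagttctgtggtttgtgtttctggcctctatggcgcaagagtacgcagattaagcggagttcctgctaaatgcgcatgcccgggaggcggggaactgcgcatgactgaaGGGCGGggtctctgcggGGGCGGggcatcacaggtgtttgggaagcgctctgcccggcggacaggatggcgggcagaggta

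The E-box occurred in 1 of these 4 windows, that of Atp6v1a, and in 7.15% of all 32851 promoters of the table. It began 131 bases before the annotated start site. The assembled Atp6v1a loci began 235 bases in M and 209 bases in MR downstream of that site. The GC box occurred in the other 3 windows and in 35.7% of all promoters. It began 130 bases before the start site in Atp6v1e1, 75 in Atp6v1d, and 31 and 14 in Atp6v1f. TCATGTG, the M-box of MITF, and TGANTCA, the AP-1 motif, had 0 matches in the 4 windows and matched 3.77% and 7.81% of all promoters. The GC content was 45.3% for Atp6v1a, 51.7% for Atp6v1e1, 56.3% for Atp6v1f and 59.7% for Atp6v1d. No motif searched was thus shared by all 4 windows.

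Each member was covered by 1 assembled locus in M and 1 in MR, and none of these loci covered 50% or more of the exon bases of another coding gene. On GRCm38, the loci of Atp6v1a lay on chromosome 16 from 44085402 to 44139024 in M and to 44139050 in MR. Those of Atp6v1b2 lay on chromosome 8 from 69088743 to 69113715 in M and from 69088782 to 69113718 in MR. In MR, the Atp6v1e1 locus ran from 120795244 to 120822769 and the Atp6v1f locus from 29467757 to 29470513, both on chromosome 6. The Atp6v1g1 locus ran from 63544761 to 63550701 on chromosome 4, and the Atp6v1c1 locus from 38661866 to 38692442 on chromosome 15. In MR, the Atp6v1d locus ran from 78842997 to 78861586 on chromosome 12, and the Atp6v1h locus from 5083126 to 5162516 on chromosome 1. Between the libraries, the 5′ ends of these 6 members were also close: they were 5 bases apart for Atp6v1g1, 4 for Atp6v1h, 24 for Atp6v1d, 25 for Atp6v1e1 and Atp6v1f, and 63 for Atp6v1c1. The loci therefore described nearly the same transcribed stretch in the 2 cultures. In both libraries the Atp6v1h loci began far inside the annotated gene on chromosome 1, at 13104 bases from its annotated start in M and 13108 in MR. The Atp6v1d loci on chromosome 12 held 50.3% of the annotated exon bases in M and 49.5% in MR, since they ended 2257 and 2272 bases short of the annotated 3′ end. The loci of the other 7 members held 76.0% to 99.9% of the exon bases. For Atp6v1a, the 5′ ends lay 235 bases in M and 209 bases in MR downstream of the start site on which the printed window is based.

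**Figure D1:**
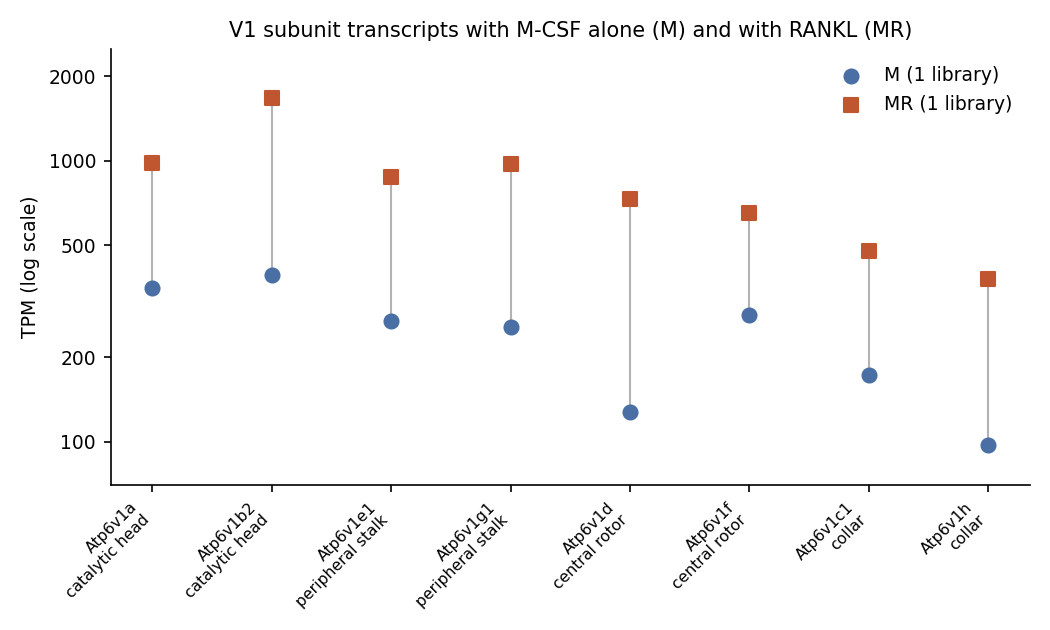
TPM of each V1 subunit (log axis) in the library of M (circles) and that of MR (squares), grouped by place in the V1 domain. Each of the 8 squares lies above the circle of its gene, and Atp6v1b2 is the highest in both libraries, at 391 and 1675.

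The catalytic head had the most abundant transcripts. Atp6v1b2 encodes the B subunit, which takes part in the nucleotide-binding sites of the head. It had 391 TPM in M and 1675 TPM in MR, a ratio of 4.28 and a log2 ratio of 2.10, the highest level of the 8 in both libraries. Atp6v1a encodes the A subunit, which carries the catalytic sites that split ATP. It had 354 TPM in M and 987 TPM in MR, a ratio of 2.79 and a log2 ratio of 1.48. A and B are assembled in equal numbers in the head. The A and B transcripts were close in M and further apart in MR, where B2 was the more abundant.

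The central rotor held both the largest and the smallest ratio of the 8 members. Atp6v1d encodes the D subunit, the shaft that turns inside the head. It had 128 TPM in M and 732 TPM in MR, a ratio of 5.72 and a log2 ratio of 2.51. Atp6v1f encodes the F subunit, which sits at the shaft. It had 283 TPM in M and 650.2 TPM in MR, a ratio of 2.29 and a log2 ratio of 1.20. At the assembled loci, F was the more abundant transcript of the pair in M, and D was the more abundant in MR. A separate entry under the gene name Atp6v1f, kept out of these values, had 161.4 TPM in MR. With that entry added, F would be the more abundant in both libraries.

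The peripheral stalk subunits were alike in level and differed less from each other. Atp6v1e1 encodes the widely expressed form of the E subunit, and its TPM was 268 in M and 879 in MR, with a log2 ratio of 1.71. Atp6v1g1 encodes the widely expressed form of the G subunit, which pairs with E in each stalk. It had 255 TPM in M and 973 TPM in MR, with a log2 ratio of 1.93. The coverage that the files list for Atp6v1g1 was below the coverage that its FPKM corresponds to, at 78.6% of it in M and 73.3% in MR. Per aligned gigabase (Gb) this listed coverage was 92.9 in M and 317 in MR. Atp6v1g1 also shares 357 bases at 99.4% identity with the processed pseudogene Gm13453, which had no locus in M and a TPM of 4.62 in MR, so that reads of the pair cannot be fully told apart. Atp6v1f shares 360 bases at 97.5% identity with a processed pseudogene on chromosome 17, for which no locus was assembled in either library.

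The collar subunits were together the least abundant pair, at 270.2 TPM in M and 856 TPM in MR. Atp6v1c1 encodes the C subunit, which is released from the complex when V1 and V0 separate. It had 173 TPM in M and 477 TPM in MR, a ratio of 2.76 and a log2 ratio of 1.46. Atp6v1h encodes the H subunit, which keeps free V1 from splitting ATP. It had 97.1 TPM in M and 379 TPM in MR, a ratio of 3.90 and a log2 ratio of 1.95. H was the least abundant of the 8 in both libraries. The listed coverage of Atp6v1h was 99.2% of that expected from FPKM in M and 86.2% in MR, and the log2 ratio of its coverage per aligned Gb was 1.68.

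**Figure D2:**
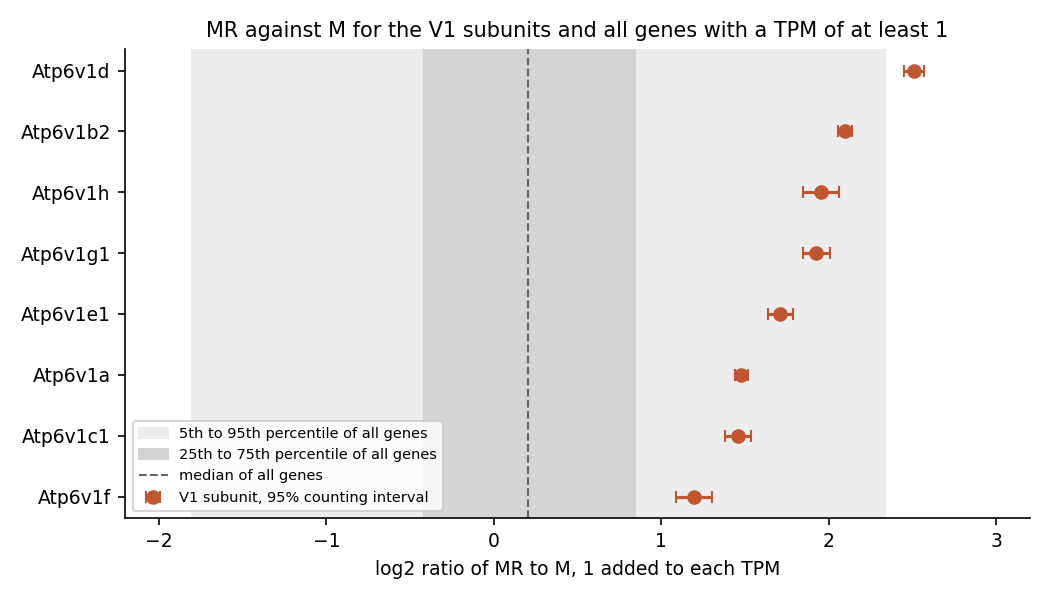
Log2 ratio of MR to M for each V1 subunit (points) with its 95% counting interval (bars), over the range of 13464 genes that reached 1 TPM (grey bands for percentiles, dashed line for the median of 0.21). All 8 points lie to the right of the inner band, and Atp6v1d at 2.51 also lies beyond the outer band.

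The order of the ratios, from the highest, was Atp6v1d, Atp6v1b2, Atp6v1h, Atp6v1g1, Atp6v1e1, Atp6v1a, Atp6v1c1 and Atp6v1f. The log2 ratio of Atp6v1d was above that of 95.9% of the 13464 genes, and that of Atp6v1f above that of 82.9% of them. From FPKM and the length of the shortest annotated coding transcript, the members had about 904 to 7718 read pairs in M and 2020 to 20907 in MR. For Atp6v1d, whose loci were shorter than this transcript, the pairs are an overestimate and its interval is too narrow. The 95% counting interval (Wilson) of the log2 ratio was 2.45 to 2.57 for Atp6v1d, 2.05 to 2.14 for Atp6v1b2, 1.44 to 1.52 for Atp6v1a and 1.09 to 1.30 for Atp6v1f. Between neighbours in this order, the 95% counting interval of the difference (Newcombe's method) held 0 for 2 of the 7 pairs. These were Atp6v1h and Atp6v1g1, with a difference of 0.03 (-0.11 to 0.16), and Atp6v1a and Atp6v1c1, with 0.02 (-0.07 to 0.10), so that their order is not resolved at this depth. The smallest difference of the other 5 pairs was that of Atp6v1b2 over Atp6v1h, at 0.14 (0.03 to 0.26). The intervals cover counting error alone and leave out any spread between cultures, which 1 library per condition does not show.

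**Figure D3:**
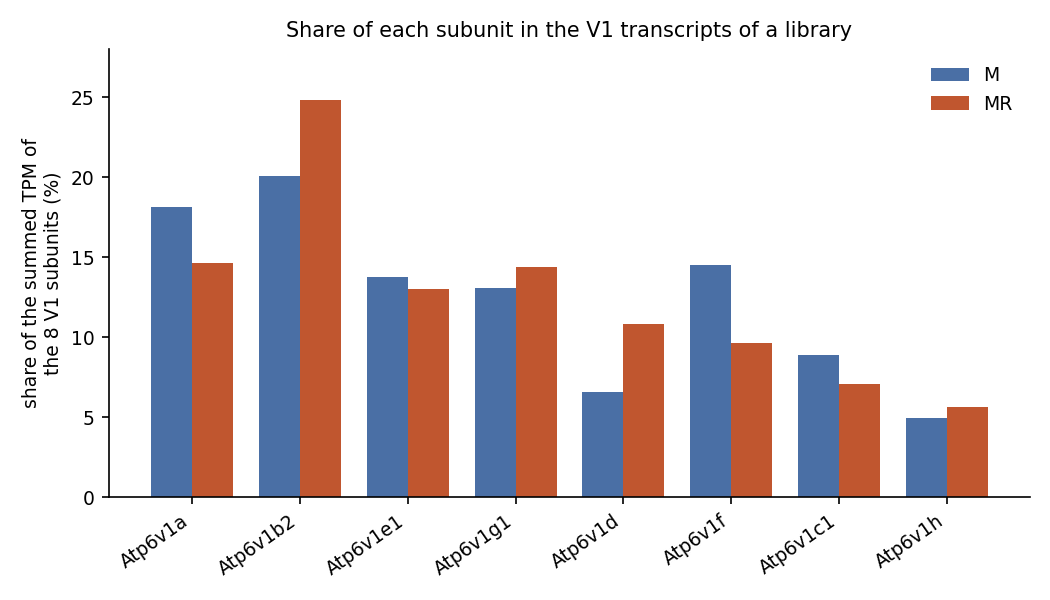
Share of each V1 subunit in the summed TPM of the 8 subunits (%, axis from 0) in M and MR. Atp6v1b2 and Atp6v1d hold larger shares in MR, and Atp6v1f and Atp6v1a smaller ones.

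Since a share within one library does not depend on the scaling between libraries, the make-up of the V1 transcripts was also compared. Atp6v1b2 held 20.1% of the summed V1 TPM in M and 24.8% in MR, and Atp6v1d held 6.56% and 10.8%. The share of Atp6v1f was 14.5% in M and 9.63% in MR, and that of Atp6v1a was 18.1% and 14.6%. The shares of the other 4 subunits differed by less than 2 percentage points. By place in the complex the make-up differed little. The head held 38.2% in M and 39.4% in MR, the peripheral stalk 26.8% and 27.4%, the rotor 21.1% and 20.5%, and the collar 13.9% and 12.7%. The differences between subunits therefore lay mostly within each place: B2 gained on A in the head, and D gained on F in the rotor. In listed coverage, Atp6v1d likewise had 6.76% of the V1 sum in M and 11.5% in MR, and Atp6v1f 15.0% and 10.2%.

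In other tissues V1 can hold other isoforms of the B, C, E and G subunits. Of the 5 genes for these isoforms, 4 (Atp6v1b1, Atp6v1c2, Atp6v1e2 and Atp6v1g3) had no assembled locus in M or MR. Atp6v1g2, the G isoform typical of neurons, had a TPM of 3.02 in M and no locus in MR. At the assembled loci, the V1 transcripts of both cultures were therefore almost wholly those of the widely expressed isoforms. A transcript too rare to be assembled would not appear.

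**Figure D4:**
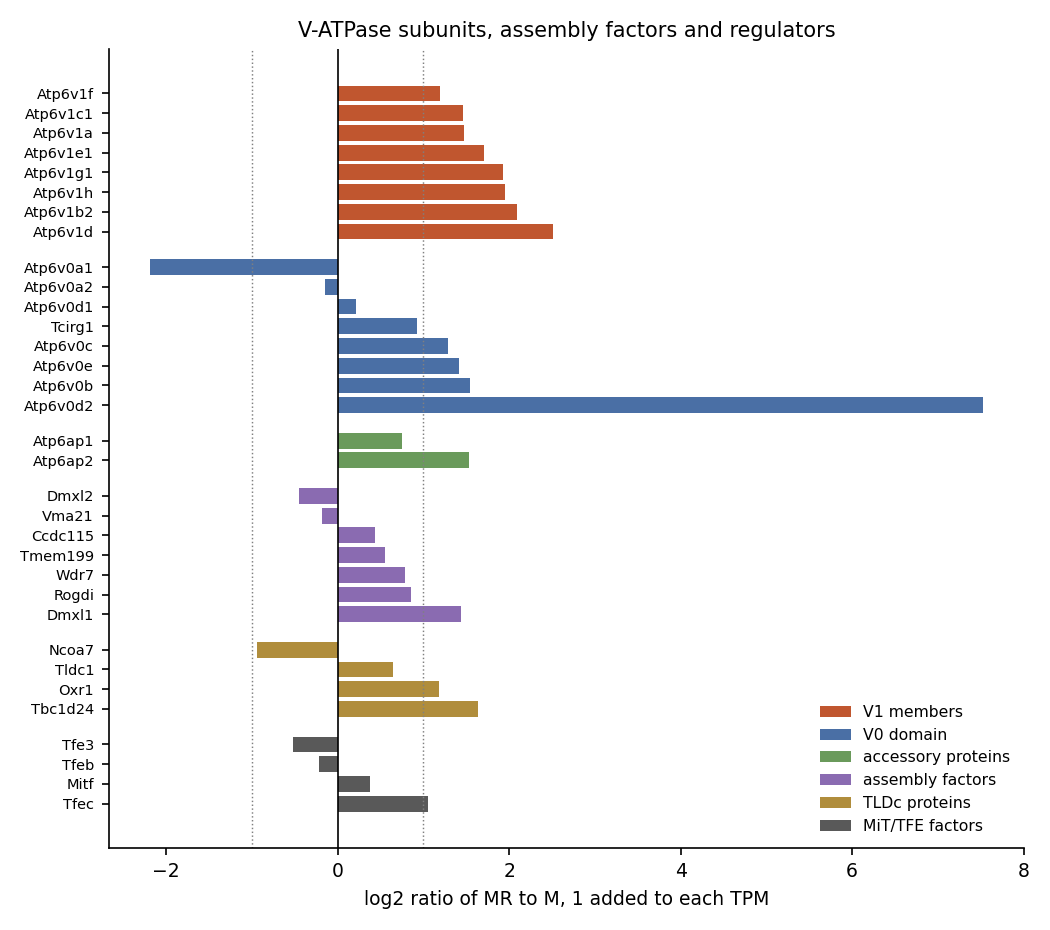
Log2 ratio of MR to M, by list, for the 8 V1 members, the V0 subunits and related genes that reached 1 TPM in either library. Dotted lines mark -1 and 1. The further V1 isoform Atp6v1g2, at -2.01, is not drawn. All 8 V1 subunits lie beyond 1, whereas the V0 subunits range from -2.18 (Atp6v0a1) to 7.52 (Atp6v0d2).

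The log2 ratios of the V0 genes were spread more widely than those of the 8 V1 members. The 2 lists differ, since the V0 list holds all isoforms and the V1 members leave out the 5 other isoform genes. Of those 5, Atp6v1g2 alone reached 1 TPM, with a log2 ratio of -2.01. Of the 10 genes on the V0 list, 8 reached 1 TPM in M or MR. Of these 8, 4 were over a log2 ratio of 1 and 1 was under -1. The median of the 8 was 1.11, against 1.82 for the V1 members. The ring subunits Atp6v0c, with 1989 TPM in M and 4863 TPM in MR, and Atp6v0b, with 490 and 1435, had log2 ratios of 1.29 and 1.55, within the range of V1. Atp6v0e, a small membrane subunit, had a log2 ratio of 1.42. Among the subunits with several isoforms, Atp6v0d2 had 4.25 TPM in M and 965 TPM in MR, Atp6v0d1 had 168 and 196, Tcirg1 (the a3 subunit) had 621 and 1183, and Atp6v0a1 had 92.5 and 19.6. Atp6v0a2 had a log2 ratio of -0.15, Atp6v0e2 had a TPM of 0.200 in M and no locus in MR, and Atp6v0a4 had no locus in either library.

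Of the accessory proteins, Atp6ap2, the prorenin receptor that is bound to the pump, had 208 TPM in M and 603 TPM in MR, with a log2 ratio of 1.53. Atp6ap1, which helps to assemble V0, had 340 and 573, with a log2 ratio of 0.75. Rnasek was given no value, since in M another gene's locus held it. Of 7 assembly factors, 1 was over 1. This was Dmxl1, a subunit of the RAVE-type complex that rejoins V1 with V0, with 20.5 TPM in M and 57.3 TPM in MR. The log2 ratios of the other 6 assembly factors (Dmxl2, Vma21, Ccdc115, Tmem199, Wdr7 and Rogdi) ranged from -0.45 to 0.85. Dmxl2 changed sign, to 0.32, when the locus with the most exon bases was used alone. Its RNA was assembled in 8 fragments in M and 4 in MR.

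Of the 5 genes for TLDc proteins, several of which bind V-ATPase, Tbc1d24 had a log2 ratio of 1.63 and Oxr1 of 1.18, which became 0.99 after median-of-ratios scaling. Ncoa7 had -0.94, which became -1.12 under that scaling, and Tldc1 0.64, and Tldc2 had no locus. The MiT/TFE factors, which are known to activate lysosomal and V-ATPase genes, had a median log2 ratio of 0.08. Tfec had 1.05, which became 0.87 after median-of-ratios scaling. Mitf had 0.38, Tfe3 -0.52 and Tfeb -0.21, and the sign for Tfeb turned in listed coverage, to 2.23. Each of these 4 factors had a TPM between 20.7 and 64.7 in both cultures, well below the V1 subunits.

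By the distance between pairs of log2(TPM + 1) values, the 5 coding genes outside these lists that lay nearest to the mean pair of the 8 members, out of 10781, were Hspe1, Lmna, Cox7b, Rpl7a and Atp5l. Hspe1, a mitochondrial chaperonin, was the nearest, at a distance of 0.11, with 232 TPM in M and 722 TPM in MR. Likeness over 2 libraries rests on 2 values per gene, and 10781 genes were searched.

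The labelled cell state was checked against marker lists. All 7 osteoclast markers were higher in MR, which together had 116 TPM in M and 23870.5 TPM in MR, and 4 of them (Calcr, Oscar, Dcstamp and Ocstamp) had no locus in M. The 6 macrophage markers summed to 20239 in M and 7872 in MR, of which 3 (Adgre1, Mrc1 and Lyz2, the last at a locus shared with another gene) were under a log2 ratio of -1. The other 3 macrophage markers were between -1 and 1, with log2 ratios of 0.32 for Csf1r, -0.26 for Cd68 and -0.34 for Itgam. The Itgam locus was likewise shared with another gene. Most of the macrophage sum was Lyz2, without which it was 4204 in M and 3338 in MR. The 7 neutrophil markers summed to 1362 in M and 950.05 in MR. The lists for B cells, red cells, stromal cells, mast cells and basophils, and dendritic cells summed to at most 32.5 in either library, and the 3 T cell markers had no locus. The part of other cell types in the V1 values was not tested. The share of TPM from the mitochondrial chromosome was 1.39% in M and 5.52% in MR.

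**Figure D5:**
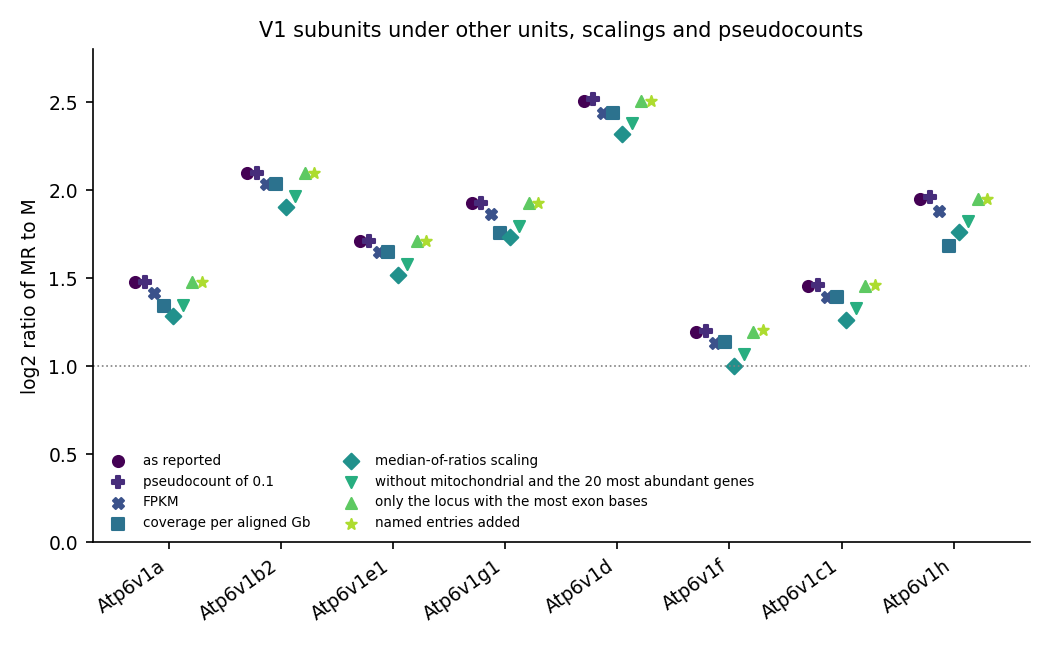
Log2 ratio of MR to M for each V1 subunit as reported and under 7 other settings (symbols), with the dotted line at 1. All values lie above 1, the lowest being Atp6v1f at 1.003 after median-of-ratios scaling. The setting with only the locus of the most exon bases repeats the reported values by construction.

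The ratios were recomputed under other units and scalings. All 56 values of the 8 members under 7 other settings stayed over 1, between 1.003 and 2.52. Not all of these values could differ from those reported. The locus with the most exon bases alone gave the same values, since each member had 1 locus per library. Adding the entries with gene names altered only Atp6v1e1, Atp6v1f and Atp6v1c1. Median-of-ratios scaling lowered the log2 ratios of all genes, by 0.18 in the median, and gave the lowest value for 7 of the 8 members. Under it Atp6v1f was at the threshold, at 1.003, and Atp6v1d was at 2.32.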

How the data were processed

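Per the labels and the methods of the study, adaptor removal by the authors used Trim Galore, HISAT2 placed the paired reads on mm10 (GRCm38), and StringTie was run with GENCODE vM27. Versions are not given in the sources used here. The deposited tables list, for each entry, FPKM, TPM and a coverage signal (read depth per base, unscaled). Without the named entries, TPM sum to 1000000 per library. Entries with gene names carry vM27 positions, which refer to GRCm39, and were not used for the main values.

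Each assembled locus was matched by strand (by either strand where it had none) to the gene of GENCODE vM21 (GRCm38) whose exons overlapped it by the most bases, with a minimum of 50. TPM was summed per gene. Loci with 50% or more of a further coding gene's exon bases were treated as shared, and genes lying within such loci without one of their own had no value. This placed 15665 of 19422 loci of M and 16523 of 19922 loci of MR. The assignment was tested on simulated loci of genes with unshared loci, with ends near the annotated ones. Shared, shortened or fragmented loci were not simulated, so the test does not cover them. Log2 ratios used a pseudocount of 1, and the genome-wide background used genes with unshared loci that reached 1 TPM in M or MR. No test was made, because there was 1 library per condition.

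Depth was taken as the commonest quotient of coverage and FPKM (entries above 5 FPKM), namely 3.63 aligned Gb for M and 2.98 for MR. Read pairs per member were estimated from FPKM, transcript length and 300 bases per pair, and the Wilson interval at 95% covers counting error only. Differences between members were given Newcombe's interval from the 2 Wilson intervals. Near-identical transcripts (at least 95% identity over 200 bases) were found with BLAST 2.17.0. The kit name does not say whether strand was kept, so that reads of overlapping genes on opposite strands may not be told apart. The alternatives were a pseudocount of 0.1, FPKM, coverage per aligned Gb, median-of-ratios scaling, leaving out mitochondrial and the 20 most abundant genes, the locus with the most exon bases alone, a log2 threshold of 2 and other filters on TPM. Adding the entries with gene names was chosen after the data were seen. Named genes are the 8 members, the V-ATPase lists, the marker lists and the 5 genes nearest in level. The members and lists were chosen with earlier results of these data known. The software was scipy 1.17.1, pandas 2.3.3, numpy 2.4.6 and matplotlib 3.10.9 under Python 3.11.15.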

Additional observations from a re-analysis of the deposited data

Results flagged for a closer look

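Entries with gene names, which were outside the main values, carried a signal for 3 members that was higher in MR than in M. The entry named Atp6v1f had 67.6 TPM in M and 161.4 TPM in MR, that named Atp6v1c1 had 24.3 and 68.8, and that named Atp6v1e1 had 2.15 and 7.28. The positions of these entries overlapped the assembled loci of the same genes in M by 2730, 30262 and 4511 bases. Their ratios of MR to M were 2.39, 2.83 and 3.39, beside 2.29, 2.76 and 3.28 at the assembled loci. The named entries of the other 5 members were below a TPM of 1 in both libraries. Of these 5, the entry named Atp6v1h also overlapped its locus in M, by 22206 bases, with 0.059 TPM in M and 0.220 TPM in MR, and the other 4 had 0 bases in common with theirs.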

How the results depend on the processing

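No paired analysis was possible because each condition has 1 library and the labels give no replicate numbers, and for the same reason no library could be left out. The log2 ratio of the summed V1 TPM was 1.79 and left its narrow counting interval, without changing direction, with FPKM (1.73), coverage per aligned Gb (1.69), leaving out the 20 most abundant and all mitochondrial genes (1.66) and median-of-ratios scaling (1.60). With a log2 threshold of 2 the count of V1 members past it was 2 (Atp6v1d and Atp6v1b2) in place of 8, where 7.12% of all genes were over 2. Atp6v1b2 fell below 2 after median-of-ratios scaling (1.90) and when the 20 most abundant and all mitochondrial genes were left out (1.97). The count of all genes past the threshold in either direction was 4644, and became 1479 with a threshold of 2, 2584 at a minimum of 10 TPM and 790 at 100 TPM, settings that by their construction leave fewer genes. Over the same 13464 genes and at the same threshold, it was 3409 with FPKM and 3469 with coverage per aligned Gb. With a pseudocount of 0.1 it was 5134. The share of higher genes among these 4644 was 61.6%, against 53.0% after median-of-ratios scaling. The median over the members was between 1.62 and 1.82 under the alternatives run. It stayed within the range of the 8 reported values, but that range (1.20 to 2.51) is too wide to register shifts of this size. Of 56 values of single members, 32 stayed within their counting interval, 24 moved and 0 reversed. The 32 include values that could not differ. These are all those with the best locus alone, and those with named entries added for members other than Atp6v1e1, Atp6v1f and Atp6v1c1. Every member moved after median-of-ratios scaling and when the 20 most abundant and all mitochondrial genes were left out. Counting error is small at this depth, and the spread between cultures is unknown.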

Other observations

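Some RNA was assembled within or across V1 genes and was not given to them. On the minus strand inside Atp6v1g1, which lies on the plus strand, a locus from 63549919 to 63550025 on chromosome 4 of GRCm38 was assembled at the same bases in both libraries. It held fewer than 50 exon bases of any annotated gene on its strand. Its TPM was 43.5 in M and 203 in MR, with a listed coverage of 73.1 and 269. On the minus strand at the start of Atp6v1b2, the loci given to Slc18a1, a vesicular monoamine transporter gene, reached over the first bases of the Atp6v1b2 loci, where reads of the 2 genes cannot be told apart, and had 4.65 TPM in M and 48.9 TPM in MR. In MR alone, a locus given to Kcp spanned Atp6v1f on the opposite strand with a TPM of 1.22, and a locus given to no gene lay inside Atp6v1h with 0.672. What gave rise to these loci was not tested, and each value rests on 1 library.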
